A study of Mus musculus with 24 samples.

Results

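The 44 genes described here encode the core machinery of autophagy and its cargo receptors, and they were chosen by their symbols. All 44 were among the 12010 genes of the deposited table. Messenger RNA had been read from its 3′ end in B16-F10 cells, a pigmented mouse melanoma line that here carries a luciferase reporter. The 8 lines, with 3 libraries each, were the parental cells (labelled WT) and lines labelled Mitf-KO, Tfe3-KO, Tfeb-KO, Tfeb and Tfe3 KO, Mitf and Tfe3 KO, Mitf and Tfeb KO, and Mitf, Tfeb and Tfe3 KO. They are called the MITF KO, TFE3 KO, TFEB KO, TFEB/TFE3 DKO, MITF/TFE3 DKO, MITF/TFEB DKO and, with all 3 factors lost, TKO. All lines grew in the same serum-containing medium with no other treatment, and the study used them to ask how MITF, TFEB and TFE3 divide the control of gene expression. The KO cells had been grown out from clones, and whatever else sets a clone apart is part of every comparison made here. The paper reports that Tfeb and Tfe3 were edited in both the parental cells and an existing MITF KO line. All lines without MITF thus descend from that line and share whatever else set it apart. The labels do not say that the 3 libraries of a line came from separate cultures, so the p-values measure only the spread between these libraries, which may be technical.

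Autophagy wraps cytoplasm, damaged organelles or protein aggregates in a growing double membrane and delivers them to the lysosome. The ULK complex starts the process and a PI3-kinase complex marks the membrane with a lipid. WIPI, ATG2 and ATG9 proteins feed the membrane, and a pair of ubiquitin-like conjugation systems then attach the ATG8 proteins (the LC3 and GABARAP families) to it. Cargo receptors bind both ATG8 proteins and cargo, and a last group of proteins fuses the closed autophagosome with the lysosome. MITF, TFEB and TFE3 are related basic helix-loop-helix leucine zipper factors that bind the E box CACGTG. TFEB and TFE3 are best known for driving lysosomal and autophagy genes when nutrients fall, and MITF for its role in the melanocyte lineage.

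Each library held between 18300902 and 26667877 reads on genes, and the 43 members with a mean of at least 5 CPM (reads of a gene scaled by library size) had 113 reads or more in every library. Tfeb had 2.06 to 5.27 CPM in the lines labelled as lacking TFEB and 7.87 to 22.7 CPM in the others. Tfe3 had 8.01 to 21.75 CPM in the lines labelled as lacking TFE3 and 31.1 to 62.5 CPM in the others. The Mitf transcript remained at 326 to 1470 CPM in the lines labelled as lacking MITF, where it does not check the label. All 8 melanocyte markers looked for were present, with summed levels of 15550 to 39330 CPM that were lowest in the MITF/TFEB DKO and TKO. Dct was the largest part of the sum, and Sox10 went the other way. Sox10 had 986 to 1121 CPM in those lines and 632 to 872 CPM in the others. Of 16 markers of other cell types 5 had values (Cd68, Lyz2, Pecam1, Krt14 and Col1a2), and they summed to at most 49.6 CPM. They differed between lines, with Krt14 at 0 CPM in the parental libraries and 16.1 to 19.3 in TKO cells, Col1a2 at 9.19 to 12.3 in the parental cells and 30.6 to 39.6 in MITF KO cells, and Pecam1 at 7.73 to 8.59 in the parental cells and 25.5 to 31.6 in TFEB/TFE3 DKO cells. Their part in the results was not tested. The libraries of a line differed mainly along 1 shared axis, the first component of the deviations from the line means, which held 51.5% of that variance over 9539 genes. Of the 43 members with at least 5 CPM, 21 (48.8%) had a Pearson correlation with this axis over 0.6 in size across the 24 libraries, against 45.1% of the 9539 genes.

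CPM were compared between lines with limma on log2(CPM + 1), and every log2 fold change is on that scale, given with its standard error from 3 libraries a line. Each adjusted p comes from limma, with the Benjamini-Hochberg method applied across all 12010 genes, and a gene was called at an adjusted p under 0.05. Levels are not ranked between genes, because a 3′ end library and the placement of a gene's poly(A) sites together set its CPM. Members averaged from 2.89 CPM (Epg5) to 601 CPM (Sqstm1), with a median of 34.9 CPM. Over the 8 lines 39 of 44 members passed the F test, beside 86.6% of all genes tested. Pik3r4, Atg14, Atg2a, Snap29 and Epg5 did not pass. The range of the 8 line means had a median of 0.72 (log2) over the members and 0.79 over the genes with at least 5 CPM, and it exceeded 1 for 8 members.

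More members were higher than lower in both the MITF KO and the DKOs without MITF, and the TKO had both in similar number. In MITF KO cells 11 of 44 were higher and 3 lower than in the parental cells, beside 20.1% and 17.8% of all genes. The TFE3 KO had 1 higher and 6 lower, beside 4.50% and 7.78%, and the TFEB KO had 3 higher and none lower, beside 2.25% and 2.59%. The TFEB/TFE3 DKO also had 3 higher and none lower, beside 4.72% and 4.09%. In MITF/TFE3 DKO cells 16 members were higher and 7 lower, beside 20.2% and 21.7%, and in MITF/TFEB DKO cells 16 were higher and 9 lower, beside 28.8% and 27.3%. The TKO had 12 higher and 14 lower, beside 28.3% and 27.9%. The members' median log2 fold change ran from -0.069 in TFE3 KO cells to 0.19 in MITF/TFE3 DKO cells, while that of all genes was within 0.016 of 0 in each of the 7 comparisons. All 7 comparisons share the parental libraries. The map of fold changes shows each gene by its role.

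**Figure D1:**
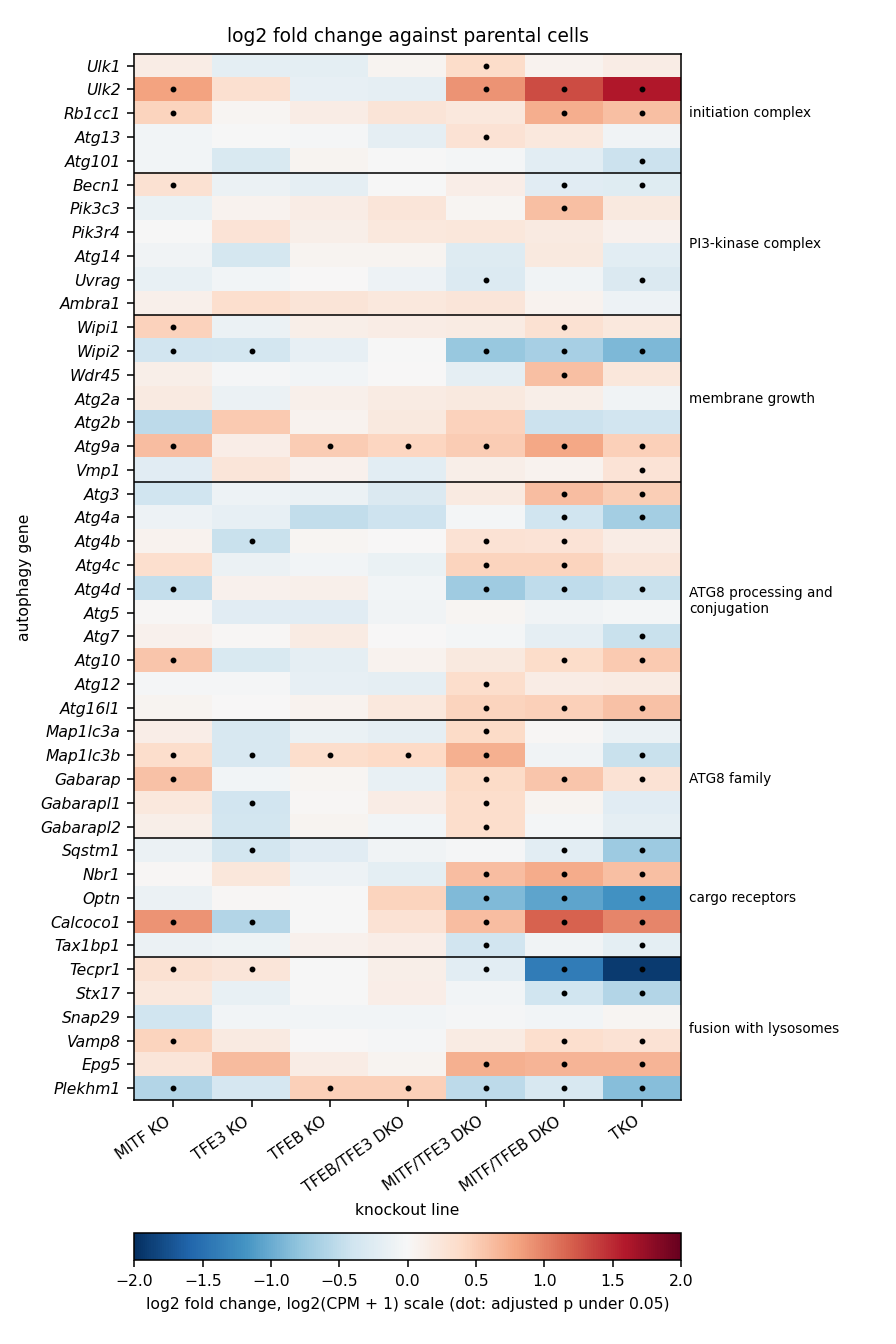
Log2 fold change of the 44 autophagy genes (rows, grouped by role) in the 7 KO lines (columns) against the parental cells, with a colour scale from -2 to 2 and a dot where the limma adjusted p was under 0.05. Tecpr1 and Optn are the darkest blue and Ulk2 the darkest red in TKO cells, and the 5 ATG8 genes are all red with a dot in MITF/TFE3 DKO cells.

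With limma and the edgeR test both at 0 lower members in TFEB KO cells and in TFEB/TFE3 DKO cells, 3 and 1 members were lower at an unadjusted p under 0.05. Fitted with only the 6 libraries compared, limma called 0 members higher and 0 lower in TFE3 KO cells and 0 higher in TFEB KO cells. Leaving out parental replicate 2 or 3 or TFE3 KO replicate 1 or 2 left 0 higher members in TFE3 KO cells. Without parental replicate 2 the TFE3 KO had 2 lower members and without TFE3 KO replicate 2 it had 3. Leaving out any parental library, or TFEB KO replicate 1 or 3, left 1 higher member in TFEB KO cells, and without its replicate 1 the TFEB KO had 1 lower member. The TFEB/TFE3 DKO had 1 higher member without its replicate 1 or 3 and 1 lower member without its replicate 2. The MITF/TFE3 DKO had 10 higher members without parental replicate 2, and the MITF/TFEB DKO had 10 without its replicate 2. The MITF/TFEB DKO had 5 lower members without parental replicate 1 or 2 or its own replicate 3, and the TKO had 7 higher members without parental replicate 1 or its own replicate 2.

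Over the 14 comparisons 192 calls of members were made, and 81 of them were lost (adjusted p of 0.05 or more by limma) in at least 1 of the fits that left out a single library of the lines compared. Against the parental cells these were Becn1 in MITF KO cells (0.122 without parental replicate 3), Wipi2, Map1lc3b, Gabarapl1, Calcoco1 and Tecpr1 in TFE3 KO cells (0.0501 to 0.184), and Map1lc3b and Plekhm1 in both TFEB KO cells (0.0528 to 0.161) and TFEB/TFE3 DKO cells (0.0542 to 0.105). In MITF/TFE3 DKO cells they were Ulk1, Atg13, Atg4c, Atg16l1, Map1lc3a, Gabarap, Gabarapl1, Gabarapl2, Nbr1, Tecpr1 and Epg5 (0.0524 to 0.208). The MITF/TFEB DKO lost Becn1, Wipi1, Wdr45, Atg4a, Atg4b, Atg4c, Atg10, Atg16l1, Sqstm1, Nbr1, Stx17, Epg5 and Plekhm1 in this way (0.0501 to 0.265), and TKO cells lost Becn1, Vmp1, Atg3, Gabarap, Nbr1, Tax1bp1, Vamp8 and Epg5 (0.052 to 0.164). Calls lost were thus 5 of 7 in TFE3 KO cells, 2 of 3 in both the TFEB KO and TFEB/TFE3 DKO cells, 11 of 23 in MITF/TFE3 DKO cells, 13 of 25 in MITF/TFEB DKO cells and 8 of 26 in TKO cells, beside 1 of 14 in MITF KO cells. The share of calls lost over all genes was not computed. Leaving out a library lowers the power for every gene, so these losses are not shown to be a trait of the members.

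Few members changed by as much as 2-fold on the log2(CPM + 1) scale, where the added 1 shrinks changes of genes at low CPM. By a rule of at least 2-fold with an unadjusted p under 0.05, 0 members were higher and 0 lower in MITF KO cells against the parental cells, beside 3.29% and 2.99% of all genes. The counts were also 0 and 0 in TFE3 KO cells (0.366% and 1.34% of all genes), TFEB KO cells (0.192% and 0.591%), TFEB/TFE3 DKO cells (0.575% and 0.383%) and MITF/TFE3 DKO cells (3.50% and 2.37%). By that rule Ulk2 and Calcoco1 were higher and Optn and Tecpr1 lower in MITF/TFEB DKO cells, 2 and 2 members beside 8.78% and 4.94%. Ulk2 was higher and Optn and Tecpr1 lower in TKO cells, 1 and 2 members beside 8.28% and 6.41%. Calcoco1 in TKO cells, at 32.75 CPM beside 16.16 in the parental cells, had 0.98 on the log2(CPM + 1) scale and was not counted. Relative to the MITF KO, Atg3 was higher and Tecpr1 lower in MITF/TFEB DKO cells (6.91% and 3.99%), Optn and Tecpr1 were lower in TKO cells (0 and 2 members beside 6.33% and 4.54%), and MITF/TFE3 DKO cells had 0 and 0 (3.39% and 1.67%). For the difference of effects of TFEB loss with and without MITF the rule took Atg3 and Tecpr1 (7.56% and 4.77%), and for TFE3 loss it took 0 and 0 (4.10% and 2.10%). TKO cells had 0 and 2 members against MITF/TFE3 DKO cells, Map1lc3b and Tecpr1 both lower (5.69% and 5.75%), and 0 and 0 against MITF/TFEB DKO cells (0.316% and 1.98%).

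**Figure D2:**
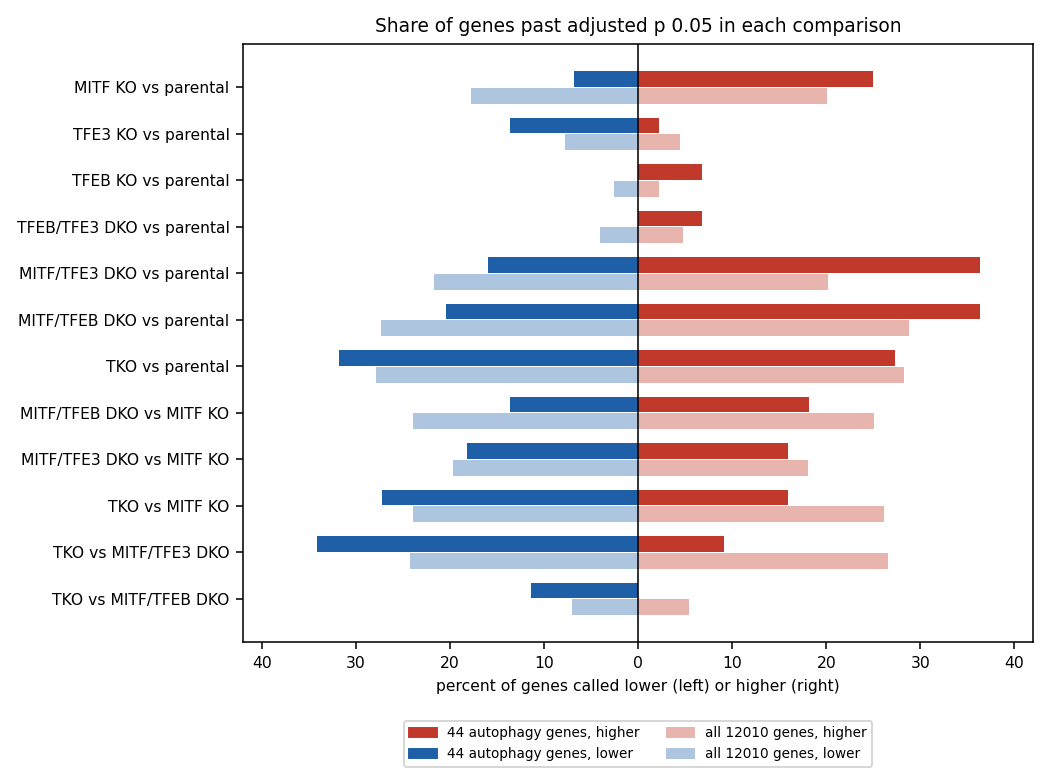
Percent of the 44 autophagy genes (dark bars) and of all 12010 genes (pale bars) called higher (to the right) or lower (to the left) at a limma adjusted p under 0.05, for 12 comparisons named on the vertical axis. The bars of the autophagy genes reach farthest past those of all genes for higher calls in MITF/TFE3 DKO cells against the parental cells (16 of 44), followed by lower calls in TKO cells against MITF/TFE3 DKO cells (15 of 44).

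Among the 5 genes of the ULK complex, Ulk2 stood apart. It (chr11:61665841-61746170, - strand, build mm39) encodes a kinase that can stand in for ULK1 in starting autophagy. Ulk2 stood at 17.9, 15.1 and 14.5 CPM in parental libraries, 20.7, 20.2 and 18.6 in TFE3 KO cells, 14.2, 14.8 and 13.1 in TFEB KO cells and 12.2, 16.3 and 13.3 in TFEB/TFE3 DKO cells. The Ulk2 values without MITF were 30.2, 26.4 and 28.7 CPM in MITF KO cells, 29.7, 30.8 and 29.99 in MITF/TFE3 DKO cells, 38.4, 40.2 and 42.96 in MITF/TFEB DKO cells and 51.7, 50.2 and 47.9 in TKO cells. Every library without MITF was above every library with MITF, and the lowest MITF/TFEB DKO and TKO libraries were above the highest library of each other line. The log2 fold change against the parental cells was 0.81 ± 0.10 in MITF KO cells (adjusted p = 1.74e-06), 0.90 ± 0.10 in MITF/TFE3 DKO cells (4.79e-07), 1.31 ± 0.10 in MITF/TFEB DKO cells (3.16e-10) and 1.602 ± 0.10 in TKO cells (7.34e-12). The TKO also exceeded the MITF KO, by 0.79 ± 0.10 (adjusted p = 1.44e-06), while the MITF/TFE3 DKO and MITF KO differed by 0.086 ± 0.10 (0.539).

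Ulk1, the kinase that mTORC1 holds in check, was called in 1 line. Ulk1 stood at 34.3, 32.3 and 30.6 CPM in parental libraries, 28.7, 30.04 and 25.5 in TFE3 KO cells, 27.1, 27.1 and 30.4 in TFEB KO cells and 31.8, 33.9 and 35.1 in TFEB/TFE3 DKO cells. The Ulk1 values without MITF were 42.4, 30.8 and 35.4 CPM in MITF KO cells, 40.03, 42.6 and 43.3 in MITF/TFE3 DKO cells, 29.4, 39.8 and 33.7 in MITF/TFEB DKO cells and 37.6, 32.6 and 38.4 in TKO cells. Only the MITF/TFE3 DKO was called, at 0.37 ± 0.11 (adjusted p = 0.0133), and without parental replicate 3 its adjusted p was 0.0524. Rb1cc1 (FIP200), the scaffold of the complex, was higher in MITF KO cells (59.4 ± 1.303 CPM, mean ± SD, n = 3), the MITF/TFEB DKO (72.8 ± 8.41) and TKO cells (66.2 ± 2.06) than in the parental cells (43.4 ± 4.53). The 100 genes around Rb1cc1 on its chromosome had a median of 0.34 in MITF/TFEB DKO cells and 0.42 in TKO cells, where Rb1cc1 itself had 0.73 and 0.60. Relative to its 100 neighbours, the value was more than 1.5 times smaller for 1 of the 14 members called in MITF KO cells, 7 of 23 in MITF/TFE3 DKO cells, 11 of 25 in MITF/TFEB DKO cells and 10 of 26 in TKO cells. Without the part along the within-line axis the same held for 0, 3, 0 and 4 of them. The same counts were not made for all genes, here or in the comparisons below. The part of the neighbours and of the axis in these results was not tested. Atg13 was higher in MITF/TFE3 DKO cells (0.29 ± 0.11) and Atg101 lower in TKO cells (-0.43 ± 0.12).

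The PI3-kinase complex, which makes the lipid PI3P on the growing membrane, had 6 members. It had 1 higher member in MITF KO cells, 1 lower in MITF/TFE3 DKO cells, 1 higher and 1 lower in MITF/TFEB DKO cells and 2 lower in TKO cells, and none in the lines that kept MITF. Of all genes 20.1% were higher and 17.8% lower in MITF KO cells, and 20.2% and 21.7% in MITF/TFE3 DKO cells. The shares were 28.8% and 27.3% in MITF/TFEB DKO cells and 28.3% and 27.9% in TKO cells. They were 4.50% and 7.78% in TFE3 KO cells, 2.25% and 2.59% in TFEB KO cells and 4.72% and 4.09% in TFEB/TFE3 DKO cells. Such low shares leave little room for calls among 6 members. Becn1 (Beclin 1), its scaffold, had 161 ± 21.5 CPM in the parental cells, 199 ± 5.31 in MITF KO cells, 136 ± 8.198 in MITF/TFEB DKO cells and 136 ± 8.06 in TKO cells. It was thus higher in MITF KO cells (0.31 ± 0.094, adjusted p = 0.0126) and lower in both MITF/TFEB DKO cells (-0.23 ± 0.094, 0.041) and TKO cells (-0.24 ± 0.094, 0.0338). Pik3c3 (VPS34), the catalytic subunit, had 18.8 ± 0.783 CPM in MITF/TFEB DKO cells and 12.1 ± 1.91 in the parental cells, a rise of 0.60 ± 0.13 (adjusted p = 0.00038). Uvrag, which takes the place of ATG14 in the endosomal form of the complex, was lower in MITF/TFE3 DKO cells (-0.27 ± 0.076) and TKO cells (-0.29 ± 0.076). The genes around Uvrag had a median of -0.35 in MITF/TFE3 DKO cells, and those around Becn1 had -0.088 in MITF/TFEB DKO cells and -0.17 in TKO cells.

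Of the 7 genes that feed the growing membrane, Wipi2 fell and Atg9a rose in several lines. WIPI2 (chr5:142613453-142656343, + strand, mm39) reads PI3P and recruits ATG16L1 to the site of conjugation. Wipi2 stood at 49.6, 52.02 and 50.03 CPM in parental libraries, 42.5, 38.3 and 36.8 in TFE3 KO cells, 48.1, 40.7 and 46.9 in TFEB KO cells and 55.5, 43.8 and 52.6 in TFEB/TFE3 DKO cells. The Wipi2 values without MITF were 36.9, 41.5 and 37.5 CPM in MITF KO cells, 30.7, 30.1 and 27.6 in MITF/TFE3 DKO cells, 35.99, 31.4 and 27.6 in MITF/TFEB DKO cells and 27.7, 26.96 and 25.1 in TKO cells. All 9 libraries of TKO cells and both DKOs without MITF were below all other libraries. Wipi2 was lower, with log2 fold changes of -0.38 ± 0.10 in MITF KO cells (adjusted p = 0.00575), -0.36 ± 0.10 in TFE3 KO cells (0.0255), -0.76 ± 0.10 in MITF/TFE3 DKO cells (4.5e-06), -0.67 ± 0.10 in MITF/TFEB DKO cells (1.02e-05) and -0.90 ± 0.10 in TKO cells (1.23e-07). In MITF/TFE3 DKO cells the genes around Wipi2 had a median of -0.35, and Wipi2 was -0.41 relative to it.

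ATG9A is the membrane protein of the vesicles that seed the autophagosome. Atg9a stood at 20.6, 17.9 and 18.2 CPM in parental libraries, 20.7, 23.2 and 18.5 in TFE3 KO cells, 27.6, 25.3 and 29.3 in TFEB KO cells and 24.03, 26.5 and 27.1 in TFEB/TFE3 DKO cells. The Atg9a values without MITF were 26.6, 32.5 and 29.9 CPM in MITF KO cells, 25.5, 29.5 and 26.9 in MITF/TFE3 DKO cells, 34.6, 31.9 and 32.97 in MITF/TFEB DKO cells and 26.99, 27.2 and 25.9 in TKO cells. The parental and TFE3 KO libraries overlapped, and the libraries of the other 6 lines were all above both. The log2 fold change was between 0.43 in TFEB/TFE3 DKO cells (adjusted p = 0.00825) and 0.78 in MITF/TFEB DKO cells (8.17e-07) in the 6 lines called, and 0.13 ± 0.10 in TFE3 KO cells (0.446). The genes around Atg9a had a median of 0.34 in MITF/TFEB DKO cells and 0.30 in TKO cells, which left Atg9a at 0.44 and 0.18.

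Atg2b, which encodes a lipid transfer protein, spread widely between libraries of a line. Atg2b stood at 30.3, 22.01 and 27.8 CPM in parental libraries, 29.5, 48.3 and 39.4 in TFE3 KO cells, 19.7, 38.5 and 28.7 in TFEB KO cells and 22.8, 44.8 and 27.2 in TFEB/TFE3 DKO cells. The Atg2b values without MITF were 18.6, 14.2 and 22.8 CPM in MITF KO cells, 35.5, 32.2 and 43.2 in MITF/TFE3 DKO cells, 12.7, 21.1 and 27.2 in MITF/TFEB DKO cells and 18, 17.9 and 24.9 in TKO cells. Libraries of nearly all lines overlapped, and no line was called against the parental cells, with -0.52 ± 0.27 in MITF KO cells (adjusted p = 0.133) and 0.52 ± 0.27 in TFE3 KO cells (0.224). Fitted with only the 6 libraries compared, the MITF KO was called (0.0253). Atg2b was higher in MITF/TFE3 DKO cells than in MITF KO cells by 0.97 ± 0.27 (0.00678). Its correlation with the within-line axis was -0.85, and without the part of the fold change along that axis this difference was 0.37. Wipi1 was higher in MITF KO cells (0.46 ± 0.11) and MITF/TFEB DKO cells (0.31 ± 0.11), Wdr45 in MITF/TFEB DKO cells (0.60 ± 0.21) and Vmp1 in TKO cells (0.28 ± 0.11). The genes around Wdr45 had a median of 0.43. Atg2a was called in none of the lines.

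The 10 genes of ATG8 processing and conjugation had 5 higher and 2 lower in MITF/TFEB DKO cells, 4 and 1 in MITF/TFE3 DKO cells, and 3 and 3 in TKO cells. All genes had 28.8% and 27.3%, 20.2% and 21.7%, and 28.3% and 27.9% in the same lines. Their promoters were searched for the 6-base E box CACGTG and for TCACGTGA, an extended form of it known from lysosomal genes as the CLEAR box, which contains the E box. Both read the same on either strand. RefSeq promoters of 300 bases, from 250 before to 50 after each start, matched 37 of the 44 members (43 promoters, build GRCm38.p6). Atg12, Atg16l1, Map1lc3a, Rb1cc1, Becn1, Epg5 and Pik3c3 had none in that table. TCACGTGA was in 1 of the 43 promoters (2.33%), beside 1.91% of the promoters of genes in the table and 0.974% of all 32851. CACGTG was in 4 of the 43 (9.30%), beside 10.1% and 7.15%. The 4 are shown because they hold the letters that the deleted factors bind, with those letters in capitals and positions from exact matches to mm39. They cover chr16:44978942-44979191 (+ strand, Atg3), chr6:114647898-114647957 (+, Atg7), chr10:44144309-44144338 (+, Atg5) and chr14:47805875-47805904 (- strand, Atg14). All 4 lie inside the genes as annotated, and that of Atg7 lies farthest from the first base of its gene (chr6:114620044). The Atg7 E box is thus at an internal RefSeq start. The first capitals of Atg3 lie at -94 to -89 from the start and the longer ones, the CLEAR box, at -72 to -65.
Atg3: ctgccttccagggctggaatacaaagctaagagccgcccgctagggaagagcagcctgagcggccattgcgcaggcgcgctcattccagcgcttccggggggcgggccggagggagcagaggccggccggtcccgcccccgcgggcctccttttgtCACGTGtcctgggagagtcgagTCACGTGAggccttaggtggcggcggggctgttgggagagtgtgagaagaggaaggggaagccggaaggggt
Atg7: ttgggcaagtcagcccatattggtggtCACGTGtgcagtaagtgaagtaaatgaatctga
Atg5: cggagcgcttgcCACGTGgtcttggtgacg
Atg14: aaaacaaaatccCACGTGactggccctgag

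Atg3, the only member with the CLEAR box among these promoters, encodes the enzyme that passes ATG8 to its lipid. Atg3 stood at 38.4, 31.1 and 37.5 CPM in parental libraries, 25.3, 43.3 and 33.3 in TFE3 KO cells, 31.6, 39.6 and 27.5 in TFEB KO cells and 26.6, 34.5 and 26.4 in TFEB/TFE3 DKO cells. The Atg3 values without MITF were 30.8, 24.7 and 24.7 CPM in MITF KO cells, 47.8, 33.97 and 40.9 in MITF/TFE3 DKO cells, 45.9, 54.2 and 67.7 in MITF/TFEB DKO cells and 49.5, 52.6 and 48.98 in TKO cells. The libraries of the MITF/TFEB DKO and TKO were above those of the parental cells and MITF KO, and those of the MITF/TFEB DKO overlapped with MITF/TFE3 DKO cells. Atg3 rose by 0.62 ± 0.18 in MITF/TFEB DKO cells (adjusted p = 0.00437) and by 0.49 ± 0.18 in TKO cells (0.0206). Its correlation with the within-line axis was -0.87, and without the part along that axis the values were 0.50 and 0.30. The genes around it had medians of 0.22 and 0.25, which left Atg3 at 0.40 and 0.24. Of the other genes with an E box, Atg7, the activating enzyme of both conjugation systems, was lower in TKO cells (-0.45 ± 0.11, adjusted p = 0.00131), beside -0.25 for the genes around it. Atg5, the partner of ATG12, and Atg14, the subunit that directs the PI3-kinase to autophagy, were called in no comparison made.

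ATG4 proteases trim ATG8 proteins before conjugation and free them afterwards, and the 4 genes differed in direction. Atg4d stood at 43.1, 49.6 and 49.3 CPM in parental libraries, 54.2, 52.8 and 43.96 in TFE3 KO cells, 50.6, 45.8 and 57.2 in TFEB KO cells and 45.5, 39.8 and 51.9 in TFEB/TFE3 DKO cells. The Atg4d values without MITF were 32.4, 35.6 and 33.1 CPM in MITF KO cells, 28.6, 29.96 and 26.6 in MITF/TFE3 DKO cells, 38.7, 30.2 and 30.3 in MITF/TFEB DKO cells and 33.7, 33.6 and 35.7 in TKO cells. All 12 libraries without MITF were below all 12 with MITF. The log2 fold change of Atg4d was -0.48 ± 0.11 in MITF KO cells (adjusted p = 0.00206), -0.72 ± 0.11 in MITF/TFE3 DKO cells (3e-05), -0.51 ± 0.11 in MITF/TFEB DKO cells (0.000577) and -0.45 ± 0.11 in TKO cells (0.00191). Relative to the genes around it Atg4d was -0.29 in MITF/TFEB DKO cells and -0.25 in TKO cells. Atg4a was lower in MITF/TFEB DKO cells (-0.39 ± 0.15) and TKO (-0.68 ± 0.15), whereas Atg4b was lower in TFE3 KO cells (-0.44 ± 0.084, adjusted p = 0.00102). Atg4b and Atg4c were higher in both MITF/TFE3 DKO cells (0.28 and 0.45) and MITF/TFEB DKO cells (0.27 and 0.44). The genes around Atg4b had a median of 0.31 in MITF/TFEB DKO cells, above the value of Atg4b itself.

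ATG10 joins ATG12 to ATG5. Atg10 stood at 11.99, 12.01 and 12.4 CPM in parental libraries, 10.6, 10.3 and 8.31 in TFE3 KO cells, 10.8, 10.01 and 11.01 in TFEB KO cells and 13.1, 12.4 and 12.7 in TFEB/TFE3 DKO cells. The Atg10 values without MITF were 20.2, 17.4 and 17.4 CPM in MITF KO cells, 12.5, 16.9 and 13.2 in MITF/TFE3 DKO cells, 15.1, 17.6 and 15.2 in MITF/TFEB DKO cells and 18.8, 17.6 and 17.5 in TKO cells. The MITF KO, MITF/TFEB DKO and TKO libraries were above all libraries with MITF. Atg10 rose by 0.55 ± 0.12 in MITF KO cells (adjusted p = 0.000626), 0.36 ± 0.12 in MITF/TFEB DKO cells (0.0111) and 0.53 ± 0.12 in TKO cells (0.00051). Atg16l1, the subunit that brings the ATG12-ATG5 pair to the membrane, was higher in MITF/TFE3 DKO cells (0.44 ± 0.16), the MITF/TFEB DKO (0.48 ± 0.16) and TKO cells (0.59 ± 0.16), where the genes around it had medians of 0.19, 0.36 and 0.36. Atg12 was higher in MITF/TFE3 DKO cells (0.35 ± 0.094).

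The 5 genes of the ATG8 family, whose proteins coat the autophagosome membrane, moved together in MITF/TFE3 DKO cells. All 5 were higher there than in the parental cells, beside 20.2% of all genes. Their median log2 fold change was 0.38, beside 0.016 over all genes. The calls of Map1lc3a, Gabarap, Gabarapl1 and Gabarapl2 in that line were lost without 1 library (limma adjusted p from 0.053 to 0.109). The TKO had 1 higher (Gabarap) and 1 lower (Map1lc3b), beside 28.3% and 27.9% of all genes. The TFE3 KO had 2 lower (Map1lc3b and Gabarapl1), beside 7.78%, with a median of -0.32 beside -0.0015 over all genes. The summed level of the family was 358.5 ± 15.2 CPM (mean ± SD, n = 3) in the parental cells, 297 ± 36.6 in TFE3 KO cells, 385 ± 13.7 in TFEB KO cells and 386 ± 19.8 in TFEB/TFE3 DKO cells. Without MITF the sum was 452 ± 30.6 CPM in MITF KO cells, 496 ± 34.1 in MITF/TFE3 DKO cells, 400.1 ± 24.3 in MITF/TFEB DKO cells and 329.9 ± 13.4 in TKO cells.

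**Figure D3:**
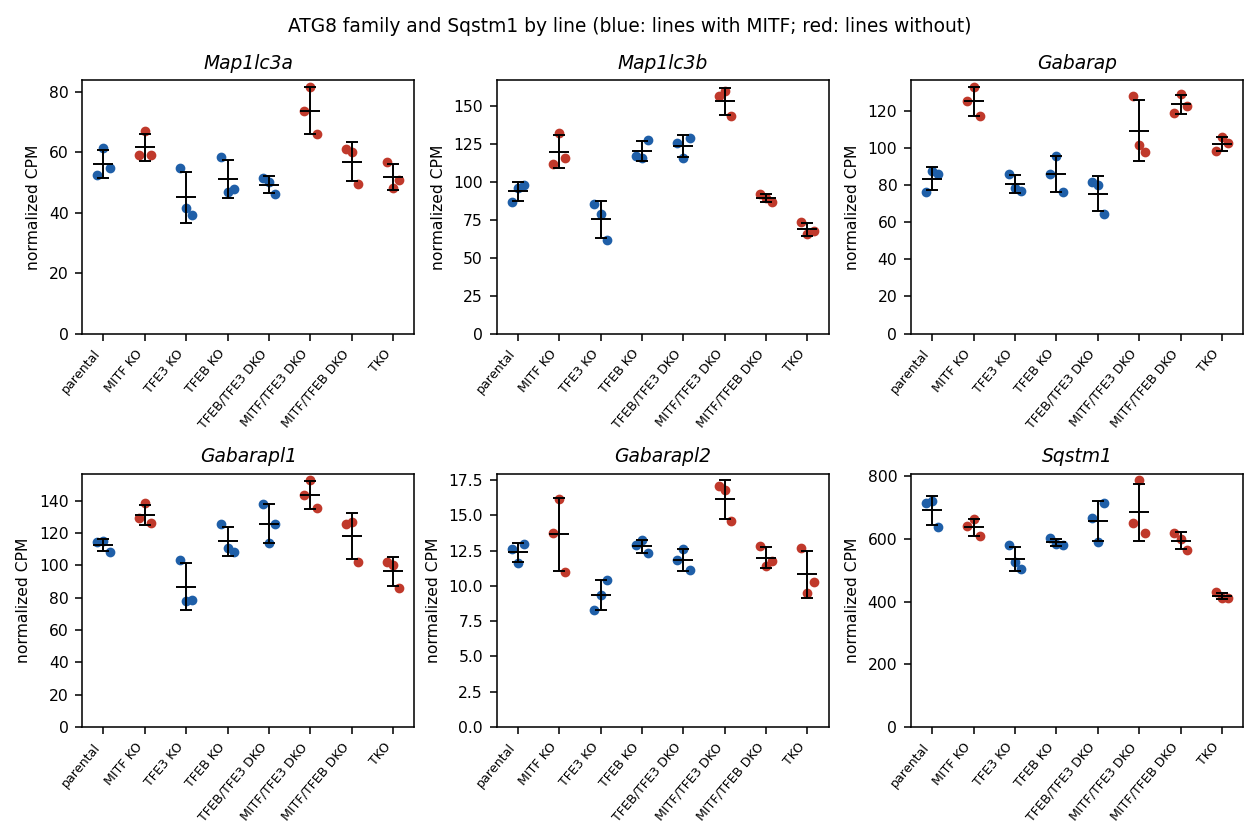
Normalized CPM (vertical axes, from 0) of the 5 ATG8 family genes and Sqstm1 in each library of the 8 lines. Points are libraries, with lines that keep MITF in blue and lines without it in red, and bars are the mean ± SD of 3 libraries. The MITF/TFE3 DKO has the highest mean of Map1lc3a, Map1lc3b, Gabarapl1 and Gabarapl2, Gabarap is higher in every red library than in every blue one, and the TKO libraries of Sqstm1 (410 to 430 CPM) are below all others.

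Map1lc3b (chr8:122317100-122325499, + strand, mm39) encodes LC3B, the ATG8 protein most used to follow autophagy. Map1lc3b stood at 86.8, 96.4 and 98.1 CPM in parental libraries, 85.3, 78.9 and 61.8 in TFE3 KO cells, 118, 116 and 128 in TFEB KO cells and 126, 116 and 129 in TFEB/TFE3 DKO cells. The Map1lc3b values without MITF were 112, 132 and 116 CPM in MITF KO cells, 157, 159.8 and 143 in MITF/TFE3 DKO cells, 92.4, 89.7 and 86.6 in MITF/TFEB DKO cells and 73.6, 65.4 and 67.4 in TKO cells. The MITF/TFE3 DKO libraries were above all others, and the TKO libraries were below all but those of TFE3 KO cells. Its log2 fold change was 0.35 ± 0.10 in MITF KO cells (adjusted p = 0.00635), -0.32 ± 0.10 in TFE3 KO cells (0.032), 0.36 ± 0.10 in TFEB KO cells (0.0324) and 0.40 ± 0.10 in TFEB/TFE3 DKO cells (0.0116). It was 0.70 ± 0.10 in MITF/TFE3 DKO cells (5.12e-06), -0.065 ± 0.10 in MITF/TFEB DKO cells (0.594) and -0.44 ± 0.10 in TKO cells (0.000524). The 100 genes around Map1lc3b moved with it in several lines. Their median was 0.24 in TFEB KO cells, 0.25 in TFEB/TFE3 DKO cells, 0.28 in MITF/TFE3 DKO cells, -0.46 in MITF/TFEB DKO cells and -0.40 in TKO cells. Relative to that median Map1lc3b was 0.42 in MITF/TFE3 DKO cells, 0.40 in MITF/TFEB DKO cells and -0.043 in TKO cells, and -0.32 in TFE3 KO cells.

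GABARAP proteins act with the LC3 proteins and recruit the ULK complex. Gabarap stood at 76.3, 87.8 and 86.1 CPM in parental libraries, 85.9, 78.6 and 76.9 in TFE3 KO cells, 85.7, 95.5 and 76.2 in TFEB KO cells and 81.5, 80.1 and 64.4 in TFEB/TFE3 DKO cells. The Gabarap values without MITF were 125, 133 and 117 CPM in MITF KO cells, 128, 102 and 98.05 in MITF/TFE3 DKO cells, 119, 129 and 123 in MITF/TFEB DKO cells and 98.2, 106 and 102 in TKO cells. Gabarap, shown in full because its groups did not overlap, was higher in every library without MITF than in every library with it. It rose by 0.58 ± 0.11 in MITF KO cells (adjusted p = 0.00013), 0.38 ± 0.11 in MITF/TFE3 DKO cells (0.0059), 0.56 ± 0.11 in MITF/TFEB DKO cells (9.09e-05) and 0.29 ± 0.11 in TKO cells (0.0222). Its share of the summed family was 31.0% in TKO cells and 19.5% in TFEB/TFE3 DKO cells, and that of Map1lc3b was 20.9% and 32.1%. Sums and shares of CPM weigh each gene by how its 3′ end is read, so they compare lines and not genes.

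Gabarapl1 stood at 114, 115 and 108 CPM in parental libraries, 104, 78.2 and 78.5 in TFE3 KO cells, 125, 111 and 108 in TFEB KO cells and 138, 114 and 126 in TFEB/TFE3 DKO cells. The Gabarapl1 values without MITF were 129, 138 and 126 CPM in MITF KO cells, 143, 153 and 135 in MITF/TFE3 DKO cells, 126, 127 and 102 in MITF/TFEB DKO cells and 102, 100.5 and 85.9 in TKO cells. Gabarapl1, a stress-responsive member of the family, was below the parental range in all 3 TFE3 KO libraries and above it in all 3 MITF/TFE3 DKO libraries. The difference was -0.39 ± 0.11 in TFE3 KO cells (adjusted p = 0.021) and 0.35 ± 0.11 in MITF/TFE3 DKO cells (0.0129). The TFE3 KO call was lost without parental replicate 1 or 2 or TFE3 KO replicate 2 or 3 (adjusted p from 0.0668 to 0.124), and its correlation with the within-line axis was 0.75. Map1lc3a (LC3A) and Gabarapl2 (GATE-16) had 73.7 ± 7.77 and 16.1 ± 1.36 CPM in MITF/TFE3 DKO cells, beside 56.1 ± 4.697 and 12.4 ± 0.701 in the parental cells. The genes around Gabarapl2 had a median of 0.26 in that line, beside its own 0.36.

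Among the 5 cargo receptors Optn fell and Nbr1 rose in the lines without MITF and another factor, and Calcoco1 rose in every line without MITF. Optineurin (Optn, chr2:5022703-5068945, - strand, mm39) delivers damaged mitochondria and bacteria to autophagosomes. Optn stood at 23.2, 23.9 and 23.9 CPM in parental libraries, 25.3, 22.4 and 24.2 in TFE3 KO cells, 29.8, 20.4 and 21.6 in TFEB KO cells and 37.7, 31.04 and 29.97 in TFEB/TFE3 DKO cells. The Optn values without MITF were 19.1, 26.5 and 20.2 CPM in MITF KO cells, 9.63, 14.9 and 13.2 in MITF/TFE3 DKO cells, 12.1, 9.28 and 11.3 in MITF/TFEB DKO cells and 8.74, 9.89 and 10.4 in TKO cells. All 9 libraries of TKO cells and both DKOs without MITF, at 8.74 to 14.9 CPM, were below all other libraries, and the MITF KO overlapped the parental cells. Optn fell, with log2 fold changes of -0.88 ± 0.16 in MITF/TFE3 DKO cells (adjusted p = 0.000107), -1.06 ± 0.16 in MITF/TFEB DKO cells (5.17e-06) and -1.21 ± 0.16 in TKO cells (7.52e-07), and the MITF KO differed by -0.12 ± 0.16 (0.58). The genes around Optn had medians between -0.20 and -0.0079 in the 3 lines.

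CALCOCO1 (chr15:102614354-102630631, - strand, mm39) is a receptor for parts of the endoplasmic reticulum and Golgi. Calcoco1 stood at 15.4, 18.3 and 14.7 CPM in parental libraries, 12.02, 9.91 and 9.33 in TFE3 KO cells, 20.4, 13.2 and 14.9 in TFEB KO cells and 19.1, 18.3 and 22.6 in TFEB/TFE3 DKO cells. The Calcoco1 values without MITF were 29.1, 32.8 and 30.6 CPM in MITF KO cells, 22.1, 27.04 and 27.1 in MITF/TFE3 DKO cells, 36.5, 43.3 and 33.3 in MITF/TFEB DKO cells and 34.5, 29.3 and 34.4 in TKO cells. The TFE3 KO libraries were below all others, and of the libraries with MITF only 1, of TFEB/TFE3 DKO cells, reached the lowest library without MITF. Calcoco1 rose by 0.90 ± 0.14 in MITF KO cells (adjusted p = 3.38e-05), 0.62 ± 0.14 in MITF/TFE3 DKO cells (0.0014), 1.17 ± 0.14 in MITF/TFEB DKO cells (3.63e-07) and 0.98 ± 0.14 in TKO cells (4.39e-06). It was lower in TFE3 KO cells, at -0.59 ± 0.14 (0.00893).

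Sqstm1 (chr11:50089572-50107684, - strand, mm39) encodes p62, the best studied receptor, which carries ubiquitinated proteins into autophagosomes. Sqstm1 stood at 714, 719.8 and 638 CPM in parental libraries, 579, 528 and 502 in TFE3 KO cells, 603, 582 and 581 in TFEB KO cells and 666, 590.2 and 716 in TFEB/TFE3 DKO cells. The Sqstm1 values without MITF were 640.0, 663 and 609 CPM in MITF KO cells, 649, 789 and 618 in MITF/TFE3 DKO cells, 618, 599 and 565 in MITF/TFEB DKO cells and 429.5, 412 and 410.1 in TKO cells. The TKO libraries were below all others, and the TFE3 KO libraries were below all parental ones. Sqstm1 was lower, with log2 fold changes of -0.36 ± 0.088 in TFE3 KO cells (adjusted p = 0.00831), -0.22 ± 0.088 in MITF/TFEB DKO cells (0.0416) and -0.72 ± 0.088 in TKO cells (2.93e-07). In MITF/TFEB DKO cells the genes around it had a median of -0.19.

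NBR1 works with p62 on protein aggregates. Nbr1 stood at 24.9, 23.01 and 32.8 CPM in parental libraries, 22.9, 41.7 and 32.02 in TFE3 KO cells, 20.4, 31.9 and 22.9 in TFEB KO cells and 21.1, 32.7 and 17.6 in TFEB/TFE3 DKO cells. The Nbr1 values without MITF were 31.6, 20.5 and 30.8 CPM in MITF KO cells, 40.3, 35.5 and 49.4 in MITF/TFE3 DKO cells, 33.6, 46.6 and 58.1 in MITF/TFEB DKO cells and 37.96, 40.9 and 44.03 in TKO cells. Every library of TKO cells and both DKOs without MITF was above every parental library, and the TFE3 KO overlapped all of them. Nbr1 rose by 0.62 ± 0.24 in MITF/TFE3 DKO cells (adjusted p = 0.0401), 0.74 ± 0.24 in MITF/TFEB DKO cells (0.0111) and 0.60 ± 0.24 in TKO cells (0.0348). The MITF/TFEB DKO call was lost without parental replicate 2 (adjusted p = 0.0519) or its own replicate 3 (0.0751). The MITF/TFE3 DKO call was lost in 4 of 6 omissions of 1 library (adjusted p from 0.0721 to 0.155). The TKO call was also lost in 4 of 6 (0.0709 to 0.125). The correlation of Nbr1 with the within-line axis was -0.93, and without the part along the axis the values were 0.30, 0.56 and 0.31. Tax1bp1, a further ubiquitin receptor, was lower in MITF/TFE3 DKO cells (-0.38 ± 0.078) and TKO (-0.19 ± 0.078).

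**Figure D4:**
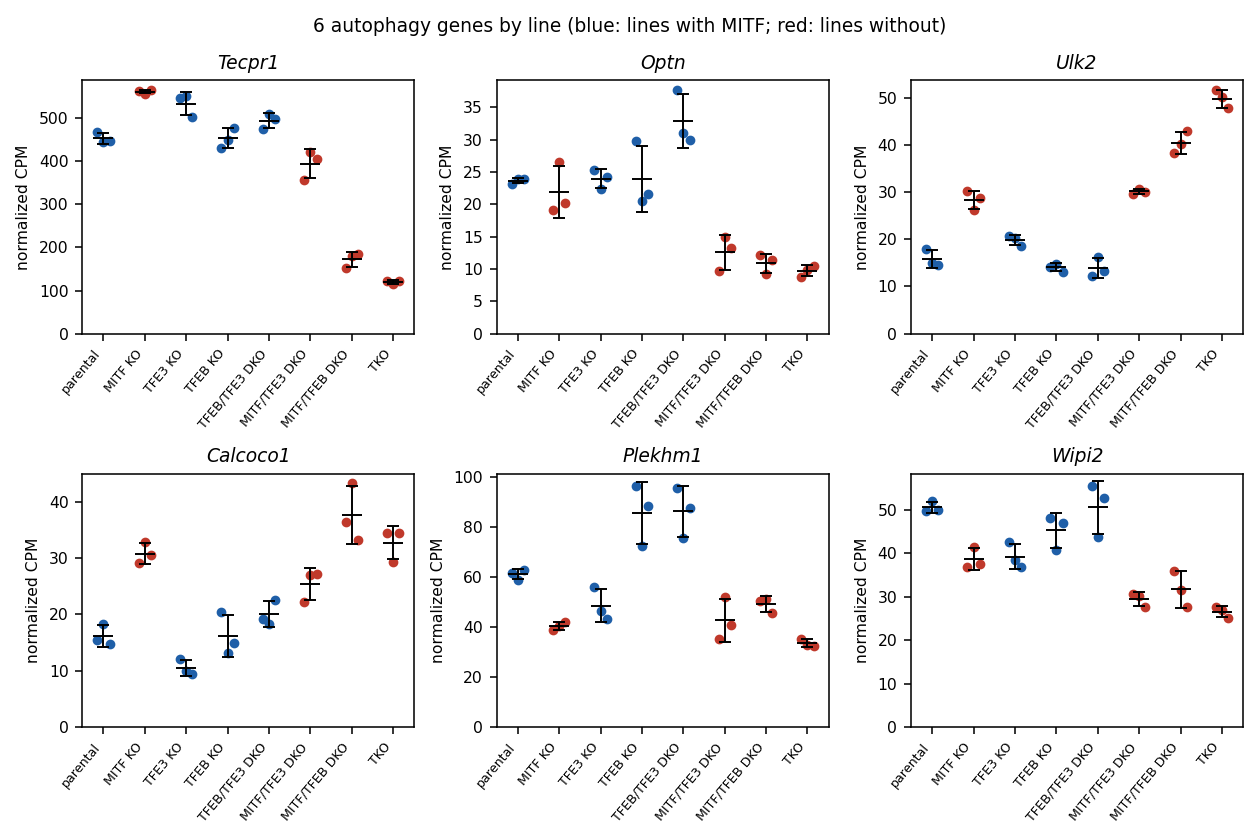
Normalized CPM (vertical axes, from 0) of Tecpr1, Optn, Ulk2, Calcoco1, Plekhm1 and Wipi2 in each library of the 8 lines. Points are libraries, blue in lines that keep MITF and red in lines without it, and bars are the mean ± SD of 3 libraries. Tecpr1 drops to 153 to 184 CPM in MITF/TFEB DKO cells and 115 to 122 CPM in TKO cells but stays at 356 CPM or more elsewhere, whereas Optn is low in MITF/TFE3 DKO cells too.

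Of the 6 genes that fuse autophagosomes with lysosomes, Tecpr1 had the widest range of all 44 members. TECPR1 (chr5:144131258-144160913, - strand, mm39) tethers autophagosomes to lysosomes and marks damaged lysosomes. Tecpr1 stood at 468, 446 and 447 CPM in parental libraries, 546, 552 and 504 in TFE3 KO cells, 432, 451 and 478 in TFEB KO cells and 475, 509 and 499 in TFEB/TFE3 DKO cells. The Tecpr1 values without MITF were 563, 557 and 565 CPM in MITF KO cells, 356, 422 and 406 in MITF/TFE3 DKO cells, 153, 181 and 184 in MITF/TFEB DKO cells and 122, 115 and 122 in TKO cells. The 6 libraries of the MITF/TFEB DKO and TKO were below all 18 others, and the TKO libraries were below those of MITF/TFEB DKO cells. The mean went from 454 ± 12.4 CPM in the parental cells to 173 ± 17.3 in MITF/TFEB DKO cells and 119.8 ± 3.98 in TKO cells (SD, n = 3). The log2 fold changes were -1.39 ± 0.077 (adjusted p = 5.44e-13) and -1.91 ± 0.077 (1.06e-15), beside neighbour medians of -0.21 and -0.18. Tecpr1 was slightly higher in MITF KO cells (0.31 ± 0.077, 0.00284) and TFE3 KO (0.23 ± 0.077, 0.0479) and lower in MITF/TFE3 DKO cells (-0.20 ± 0.077, 0.0369). The TFE3 KO call was lost in 5 of 6 omissions of 1 library (all but TFE3 KO replicate 3) and the MITF/TFE3 DKO call in 4 (each parental library or its own replicate 1). In MITF/TFE3 DKO cells the genes around it had a median of -0.35, so that its direction relative to them was the opposite.

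PLEKHM1 (chr11:103255099-103303544, - strand, mm39) links late endosomes and autophagosomes to the fusion machinery. Plekhm1 stood at 61.7, 58.9 and 62.8 CPM in parental libraries, 55.8, 46.4 and 43.1 in TFE3 KO cells, 96.5, 72.2 and 88.2 in TFEB KO cells and 95.4, 75.5 and 87.6 in TFEB/TFE3 DKO cells. The Plekhm1 values without MITF were 38.7, 40.3 and 42.1 CPM in MITF KO cells, 35.2, 52.01 and 40.6 in MITF/TFE3 DKO cells, 50.5, 51.2 and 45.5 in MITF/TFEB DKO cells and 35.3, 32.95 and 32.2 in TKO cells. The 6 libraries of the TFEB KO and TFEB/TFE3 DKO were above all 18 others. Plekhm1 was higher by 0.47 ± 0.13 in TFEB KO cells (adjusted p = 0.0295) and 0.48 ± 0.13 in TFEB/TFE3 DKO cells (0.0171). It was -0.59 ± 0.13 in MITF KO cells (0.000716), -0.53 ± 0.13 in MITF/TFE3 DKO cells (0.00169), -0.31 ± 0.13 in MITF/TFEB DKO cells (0.037) and -0.85 ± 0.13 in TKO cells (4.41e-06). In MITF/TFEB DKO cells the genes around Plekhm1 had a median of -0.22, which left it at -0.092.

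Syntaxin 17 (Stx17) is the SNARE of the closed autophagosome, and it pairs with SNAP29 and the lysosomal VAMP8. Stx17 stood at 40.7, 38.9 and 34.8 CPM in parental libraries, 36.3, 30.99 and 35.98 in TFE3 KO cells, 43.2, 34 and 37.2 in TFEB KO cells and 44.9, 35.97 and 44.8 in TFEB/TFE3 DKO cells. The Stx17 values without MITF were 43.1, 41.9 and 47.5 CPM in MITF KO cells, 33.05, 42.7 and 35.01 in MITF/TFE3 DKO cells, 33.2, 28.1 and 25.4 in MITF/TFEB DKO cells and 23.5, 25.1 and 27 in TKO cells. The TKO libraries were below those of every line but the MITF/TFEB DKO. Stx17 was lower, with log2 fold changes of -0.39 ± 0.12 in MITF/TFEB DKO cells (adjusted p = 0.00877) and -0.58 ± 0.12 in TKO cells (0.000325). The genes around it had medians of -0.37 and -0.31, which left Stx17 at -0.025 and -0.27. Vamp8 was higher in MITF KO cells (0.45 ± 0.094), the MITF/TFEB DKO (0.33 ± 0.094) and TKO cells (0.29 ± 0.094), and Snap29 was called in none of the lines against the parental cells. Epg5, a tether that did not pass the F test, was called higher in MITF/TFE3 DKO cells (0.72 ± 0.28), MITF/TFEB DKO (0.68 ± 0.28) and TKO (0.68 ± 0.28), at 29 to 133 reads a library.

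Annotated genes on the opposite strand overlap the 3′ end of Tecpr1 (Bhlha15), Map1lc3b (Zcchc14), Sqstm1 (Mrnip), Calcoco1 (Gm36510), Plekhm1 (Arhgap27os1), Atg4d (Kri1), Atg10 (Rps23) and 6 other members described here (Atg13, Becn1, Pik3r4, Wipi1, Atg4c and Tax1bp1), and Vamp8 overlaps Gm52494. On the same strand Gm29253 overlaps Atg9a and Gm45208 overlaps Wdr45. The counting tool and its strand setting are not given in the sources used here, so that reads of such pairs may not be separated, and these levels are uncertain to that degree.

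Loss of TFEB was next compared between cells with and without MITF. In cells with MITF the comparison is the TFEB KO against the parental cells, and in cells without it the MITF/TFEB DKO against MITF KO cells. In MITF/TFEB DKO cells 8 members were higher and 6 lower than in MITF KO cells, beside 25.1% and 23.9% of all genes. The difference of both effects was called above 0 for 3 members and below 0 for 6, beside 17.7% and 17.4%. For Tecpr1 the effect of TFEB loss was -0.0016 ± 0.077 with MITF and -1.701 ± 0.077 without it, a difference of -1.699 ± 0.11 (adjusted p = 1.34e-11). Optn had -0.0025 ± 0.16 and -0.94 ± 0.16 (0.00212 for the difference), and Stx17 -0.0052 ± 0.12 and -0.60 ± 0.12 (0.00955). Map1lc3b was higher with loss of TFEB in cells with MITF (0.36 ± 0.10) and lower in cells without it (-0.42 ± 0.10), a difference of -0.78 ± 0.14 (0.000119). The genes around Map1lc3b differed by -0.81 in the same contrast, which left it at 0.030.

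Atg3 went the other way, with -0.12 ± 0.18 with MITF and 1.03 ± 0.18 without it, a difference of 1.15 ± 0.25 (adjusted p = 0.000919) and of 0.81 without the part along the within-line axis. Ulk2 differed by 0.65 ± 0.15 (0.00135) and Pik3c3 by 0.58 ± 0.18 (0.0153), both higher after loss of TFEB in cells without MITF. Becn1 differed by -0.36 ± 0.13 (0.0377) and Atg7 by -0.42 ± 0.16 (0.0377). Without TFEB KO replicate 2 or MITF/TFEB DKO replicate 1 the difference was called above 0 for 6 members. The count of members higher in MITF/TFEB DKO cells than in the MITF KO was 4 without MITF KO replicate 2 and 5 without MITF/TFEB DKO replicate 2 or 3. Of the 14 members called in that comparison, 6 had a value more than 1.5 times smaller relative to their neighbours and 4 without the part along the axis, and of the 9 differences of effects 3 and 2 did. Calls of Rb1cc1, Wipi2, Vmp1, Atg4b, Atg16l1 and Nbr1 between the MITF/TFEB DKO and MITF KO (0.0556 to 0.192) and the differences of Becn1, Pik3c3 and Atg7 (0.0506 to 0.139) were lost without 1 library.

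**Figure D5:**
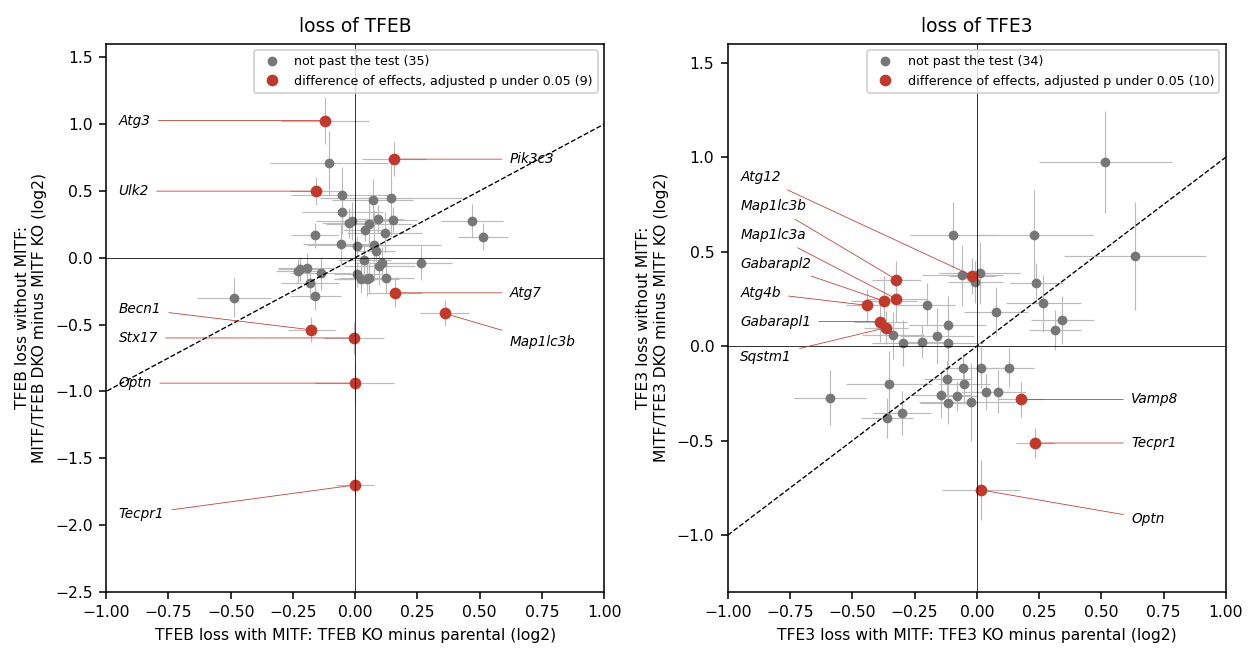
Log2 fold change of each of the 44 genes after loss of TFEB (left) or TFE3 (right) in cells with MITF (horizontal axis) and without MITF (vertical axis), with standard errors as grey bars and the line of equal effects dashed. Red points passed the limma test of the difference between both effects (9 genes for TFEB and 10 for TFE3), with Tecpr1 lowest for TFEB and 4 ATG8 family genes left of 0 and above 0 for TFE3.

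The effect of TFE3 loss on 4 of the 5 ATG8 genes differed between cells with and without MITF. The MITF/TFE3 DKO had 7 members higher and 8 lower than the MITF KO, beside 18.1% and 19.7% of all genes. The difference of effects was called above 0 for 7 members and below 0 for 3, beside 10.2% and 10.0%. Map1lc3b had -0.32 ± 0.10 with MITF and 0.35 ± 0.10 without it, a difference of 0.68 ± 0.14 (adjusted p = 0.00103). Gabarapl1 differed by 0.52 ± 0.15 (0.0181), Map1lc3a by 0.57 ± 0.17 (0.0195) and Gabarapl2 by 0.61 ± 0.18 (0.0209), whereas Gabarap had -0.15 ± 0.15 (0.522). Without the part along the within-line axis these 4 differences were between 0.60 and 0.72. Sqstm1 (0.46 ± 0.12), Atg4b (0.66 ± 0.12) and Atg12 (0.39 ± 0.13) also had a higher effect without MITF, and Tecpr1 (-0.75 ± 0.11), Optn (-0.78 ± 0.22) and Vamp8 (-0.46 ± 0.13) a lower one. The genes around Tecpr1 differed by -0.38 in this contrast. Without MITF KO replicate 1 or 2 or MITF/TFE3 DKO replicate 3, 5 members were lower in MITF/TFE3 DKO cells than in MITF KO cells. Of the 15 members called between these lines, 6 had a value more than 1.5 times smaller relative to their neighbours and 5 without the part along the axis, and of the 10 differences of effects 2 and 0 did. Lost without 1 library were the calls of Rb1cc1, Atg13, Wipi1, Vmp1, Atg3, Atg4b, Atg10, Tax1bp1 and Vamp8 between the lines (0.0507 to 0.203) and the differences of Atg12, Map1lc3a, Gabarapl1, Gabarapl2, Optn and Vamp8 (0.0519 to 0.12). Both differences of effects and the comparisons with MITF KO cells share the MITF KO libraries.

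The TKO adds loss of the third factor to each DKO. Against MITF KO cells it had 7 members higher and 12 lower, beside 26.1% and 23.9% of all genes, with 3 higher without MITF KO replicate 2 and 4 without TKO replicate 2 or 3. Of these 19 members, 8 had a value more than 1.5 times smaller relative to their neighbours and 8 without the part along the axis, among them Nbr1, which went from 0.57 to 0.025. Without 1 library the calls of Atg101, Pik3c3, Atg16l1, Gabarap, Nbr1 and Snap29 were lost (0.0504 to 0.243). Against MITF/TFE3 DKO cells, and thus with TFEB lost as well, 4 members were higher and 15 lower, beside 26.6% and 24.2%. The lower ones included 4 of the 5 ATG8 genes, with Map1lc3b at -1.15 ± 0.10 (adjusted p = 1.25e-09), Gabarapl1 at -0.58 ± 0.11 (0.000109), Gabarapl2 at -0.54 ± 0.13 (0.00145) and Map1lc3a at -0.50 ± 0.12 (0.00155). Gabarap was at -0.088 ± 0.11 (0.513). Sqstm1 was also lower, at -0.71 ± 0.088 (5.45e-07), as was Tecpr1, at -1.71 ± 0.077 (1.26e-14), and Ulk2 was higher by 0.71 ± 0.10 (5.64e-06). The genes around Map1lc3b differed by -0.69, those around Gabarapl2 by -0.49, those around Sqstm1 by -0.15 and those around Tecpr1 by 0.17. Relative to their neighbours 11 of these 19 members had a value more than 1.5 times smaller, and without the part along the axis 0 had. Without MITF/TFE3 DKO replicate 1 or TKO replicate 1, 2 members were higher, and the calls of Atg13, Atg101, Ambra1, Atg2b, Atg10, Calcoco1 and Plekhm1 were lost without 1 library (0.0521 to 0.271).

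Against MITF/TFEB DKO cells, with TFE3 lost as well, the TKO had no higher member by limma or edgeR (1 at an unadjusted p under 0.05) and 5 lower ones, beside 5.41% and 6.99% of all genes. The 5 were Plekhm1 (-0.54 ± 0.13, adjusted p = 0.00492), Tecpr1 (-0.52 ± 0.077, 3.39e-05), Sqstm1 (-0.51 ± 0.088, 0.000255), Pik3c3 (-0.41 ± 0.13, 0.0381) and Map1lc3b (-0.38 ± 0.10, 0.0107). Without TKO replicate 2 there were 3, with the calls of Pik3c3 and Map1lc3b lost, and that of Pik3c3 was lost in 5 of 6 omissions of 1 library. None of the 5 had a value more than 1.5 times smaller relative to its neighbours or without the part along the axis. The genes around Sqstm1, Tecpr1 and Map1lc3b differed by 0.011, 0.022 and 0.069.

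Across all lines, 2 members (Ulk2 and Gabarap) were higher in each of the 12 libraries without MITF than in each of the 12 with it, beside 4.20% of all genes. One member (Atg4d) was lower in each, beside 3.46%. Ulk2 ran from 12.2 to 20.7 CPM with MITF and from 26.4 to 51.7 CPM without it. Gabarap ran from 64.4 to 95.5 and from 98.0 to 133 CPM, and Atg4d from 39.8 to 57.2 and from 26.6 to 38.7 CPM. The other 41 members overlapped. The lines without MITF all descend from the MITF KO line, so these 12 libraries are not independent losses of MITF. Loss of MITF and other traits of that line cannot be told apart here.

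Beyond the 44 genes, 47 of 50 further autophagy genes listed by role had values, and 44 of the 47 passed the F test, beside 86.6% of all genes. Against the parental cells 15 were higher and 2 lower in MITF KO cells, 3 and 3 in TFE3 KO cells, 2 and 2 in TFEB KO cells, and 3 and 2 in TFEB/TFE3 DKO cells. All genes had 20.1% and 17.8%, 4.50% and 7.78%, 2.25% and 2.59%, and 4.72% and 4.09% in those lines. The MITF/TFE3 DKO had 13 and 9, the MITF/TFEB DKO 18 and 14, and TKO cells 14 and 19, beside 20.2% and 21.7%, 28.8% and 27.3%, and 28.3% and 27.9% of all genes. Of the 17 tethering, fusion and HOPS genes, 10 were lower in TKO cells (Tbc1d2, Stx7, Arl8b, Vps33a, Vps11, Vps16, Vps39, Fyco1, Rab7 and Ykt6) and 3 higher (Rab7b, Tbc1d5 and the HOPS subunit Vps41), beside 27.9% and 28.3% of all genes, with a median of -0.29 beside 0.014 over all genes. HOPS is the complex that tethers late endosomes and autophagosomes to lysosomes.

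Prkaa1, which encodes a catalytic subunit of AMPK, a kinase that activates ULK1, was low without MITF. Prkaa1 stood at 75.3, 78.99 and 74.7 CPM in parental libraries, 87.9, 79.7 and 79.6 in TFE3 KO cells, 86.6, 76.8 and 90.3 in TFEB KO cells and 88.4, 81.6 and 90.3 in TFEB/TFE3 DKO cells. The Prkaa1 values without MITF were 23.1, 23.7 and 20.3 CPM in MITF KO cells, 24.04, 21.9 and 23.4 in MITF/TFE3 DKO cells, 20.4, 20.99 and 17.8 in MITF/TFEB DKO cells and 20.9, 18.4 and 16.9 in TKO cells. Every library without MITF was below every library with it, at -1.73 ± 0.094 in MITF KO cells (adjusted p = 5.49e-13) and -1.98 ± 0.094 in TKO cells (2.36e-14). Trp53inp2, a nuclear protein that moves to autophagosomes, was high in the same libraries, at 69.5 ± 14.9 CPM in MITF KO cells and 79.01 ± 3.95 in TKO cells beside 22.4 ± 3.27 in the parental cells. Rubcn (Rubicon), a negative regulator of the PI3-kinase complex, was at 52.3 ± 3.73 CPM in MITF/TFEB DKO cells and 52.6 ± 6.48 in TKO cells beside 22.4 ± 0.448, with 1.19 ± 0.14 in TKO cells (1.82e-07).

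Trp53inp1, a relative of Trp53inp2, moved in both directions. Trp53inp1 stood at 18.9, 16.2 and 19.96 CPM in parental libraries, 10.1, 11.8 and 13.02 in TFE3 KO cells, 8.68, 11.2 and 10.7 in TFEB KO cells and 11.02, 16.1 and 12.5 in TFEB/TFE3 DKO cells. The Trp53inp1 values without MITF were 32.01, 28.96 and 32.7 CPM in MITF KO cells, 49.3, 55.4 and 63.5 in MITF/TFE3 DKO cells, 41.7, 48.2 and 48.6 in MITF/TFEB DKO cells and 25.2, 24.4 and 25.7 in TKO cells. It was lower in TFE3 KO cells (-0.62 ± 0.13) and TFEB KO (-0.79 ± 0.13) and higher in MITF/TFE3 DKO cells (1.56 ± 0.13, adjusted p = 3.7e-09) and MITF/TFEB DKO (1.29 ± 0.13). Rab7b, a lysosomal GTPase gene, rose from 1.75 ± 1.01 CPM in the parental cells to 3.78 ± 0.284 in MITF KO cells, 5.54 ± 0.713 in TFEB KO cells, 22.1 ± 4.61 in MITF/TFEB DKO cells and 44.6 ± 2.92 in TKO cells (4.12 ± 0.21, 1.11e-13), where the genes around it had a median of 0.56. Tbc1d2, which switches off RAB7, fell from 2.41 ± 0.449 CPM to 0.336 ± 0.209 in TKO cells (-1.35 ± 0.19, 1.53e-06). It was also called lower in MITF/TFEB DKO cells (0.379 ± 0.135 CPM) and higher in TFEB/TFE3 DKO cells (5.02 ± 1.32 CPM). Its libraries held 3 to 163 reads, and the 1 added before the log shrinks changes at such low CPM. Phb2 (prohibitin 2), an inner mitochondrial membrane receptor, was at 272 ± 24.7 CPM in MITF/TFEB DKO cells beside 554 ± 15.03 (-1.03 ± 0.069, 1.89e-11). It was also called lower in MITF KO, MITF/TFE3 DKO and TKO cells and higher in TFE3 KO cells.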

How the data were processed

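RNA from 8 lines of B16-F10 cells, 3 libraries each, had been sequenced with QuantSeq Forward, a kit that reads the 3′ end of messenger RNA. Per the study's methods, the authors trimmed adaptors and poly(A) with Trim Galore 0.6.5 (cutadapt 2.10, FastQC 0.11.9), aligned the reads with STAR 2.7.8a to mm39 and normalised with edgeR. The counting tool, annotation and gene filter are not given in the sources used here. The deposited values are a normalised signal: by their steps, gene counts scaled to library size (CPM) that the authors had divided by TMM factors. Dividing by the step of 1 read gave whole reads within 0.01 for 99.9% of values (99.8% in the lowest library), 18300902 to 26667877 per library.

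Groups followed the labels. limma 3.58.1 (R 4.3.3) was fitted to log2(CPM + 1) of all 24 libraries, with a variance trend and 16 residual degrees of freedom, and p-values were adjusted over 12010 genes. Values in full are given for the 14 members with the widest range of line means among those past the F test, and for Map1lc3b, Gabarapl1, Sqstm1 and Ulk1. Of the other autophagy genes the 8 widest are named. The members and lists were chosen with earlier results of these data known, and the comparisons of TKO cells with each DKO after values had been seen. Positions come from GENCODE vM39 and promoters from RefSeq. The fold change of each gene was also set against the median of the 100 genes around it, a window chosen for differences between clones that cover parts of chromosomes. Alternatives were edgeR 4.0.16 on the recovered reads, DESeq2 1.42.0 size factors, quantile scaling, other pseudocounts, a low-value filter, no trend, only the libraries compared, a rule of at least 2-fold with an unadjusted p under 0.05, the within-line axis as a covariate (added later), a replicate block and each library left out. The fit was also run on simulated counts of independent libraries, with the same dispersion for every gene and no shared axis. That setting differs from the spread of these libraries, so it does not speak for the rate of false calls here.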

Additional observations from a re-analysis of the deposited data

Results flagged for a closer look

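Each gene named here had an effect of TFEB loss or of TFE3 loss that differed between cells with and without MITF by limma's test of the difference (log2, effect without MITF minus effect with MITF). For TFEB loss, the differences were -1.70 for Tecpr1 (adjusted p = 1.34e-11), 1.15 for Atg3 (0.000919), -0.936 for Optn (0.00212), -0.775 for Map1lc3b (0.000119) and 0.655 for Ulk2 (0.00135). They were -0.595 for Stx17 (0.00955), 0.583 for Pik3c3 (0.0153), -0.423 for Atg7 (0.0377) and -0.364 for Becn1 (0.0377). For TFE3 loss, they were -0.777 for Optn (0.0149), -0.747 for Tecpr1 (2e-05), 0.676 for Map1lc3b (0.00103), 0.658 for Atg4b (0.000304) and 0.612 for Gabarapl2 (0.0209). They were 0.573 for Map1lc3a (0.0195), 0.517 for Gabarapl1 (0.0181), 0.462 for Sqstm1 (0.0103), -0.459 for Vamp8 (0.0162) and 0.390 for Atg12 (0.0409). All of them rest on the MITF KO and parental libraries, which both tests share.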

How the results depend on the processing

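Counts of members are given here as higher and lower. Under the rule of at least 2-fold with an unadjusted p under 0.05, there were 0 and 0 members in MITF KO cells, TFE3 KO, TFEB KO, TFEB/TFE3 DKO and MITF/TFE3 DKO against the parental cells, 2 and 2 in MITF/TFEB DKO cells and 1 and 2 in TKO cells. Against MITF KO cells there were 1 and 1 in MITF/TFEB DKO cells, 0 and 0 in MITF/TFE3 DKO cells and 0 and 2 in TKO cells. The effect of TFEB loss differed by that rule for 1 and 1, that of TFE3 loss for 0 and 0, and the TKO had 0 and 2 against MITF/TFE3 DKO cells and 0 and 0 against MITF/TFEB DKO cells. That rule asks for a larger change, which by its construction leaves fewer genes.

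With the within-line axis as a covariate, added after the data had been seen, the MITF KO had 7 lower members, the TFE3 KO 6 higher and 12 lower, the TFEB KO 3 lower and TFEB/TFE3 DKO cells 5 higher and 3 lower. Higher members were 14 in MITF/TFEB DKO cells and 12 in MITF/TFE3 DKO cells against MITF KO cells, 7 and 13 for the difference of the effects of TFEB and TFE3 loss, and 9 in TKO cells against MITF/TFE3 DKO cells. The TKO then had 2 higher and 13 lower against MITF/TFEB DKO cells. The axis was taken from the deviations of these same libraries, so fitting it lowers their residual spread by construction. The larger counts are therefore no added evidence for these members. With only the libraries compared, the MITF KO had 7 lower members, the TFE3 KO 0 and 0, the TFEB KO 0 higher, the MITF/TFE3 DKO 5 lower against the MITF KO and TKO cells 1 higher against MITF/TFEB DKO cells. Quantile scaling gave 1 lower in TFEB KO cells, 5 higher in MITF/TFEB DKO cells and 4 in TKO cells against MITF KO cells, and 1 in TKO cells against MITF/TFEB DKO cells, as did a pseudocount of 5. Without the variance trend the TFEB KO had 1 lower member. The TFE3 KO had 2 higher with the filter at 5 CPM or DESeq2 size factors and 0 by edgeR. The cause of the other moves was not tested, and shares of all genes were not computed under these alternatives.

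Leaving out each library in turn gave 10 to 12 higher and 3 to 4 lower members in MITF KO cells, 0 to 1 and 2 to 9 in TFE3 KO cells, 1 to 3 and 0 to 1 in TFEB KO cells, 1 to 3 and 0 to 1 in TFEB/TFE3 DKO cells, 10 to 13 and 6 to 7 in MITF/TFE3 DKO cells, 10 to 15 and 5 to 8 in MITF/TFEB DKO cells and 7 to 12 and 12 to 13 in TKO cells. Against MITF KO cells the ranges were 4 to 10 and 5 to 7 for MITF/TFEB DKO cells, 5 to 7 and 5 to 7 for MITF/TFE3 DKO cells and 3 to 7 and 11 to 13 for TKO cells. They were 2 to 6 and 4 to 7 for the difference of effects of TFEB loss, 5 to 9 and 2 to 3 for TFE3 loss, and 2 to 4 and 11 to 17 for TKO cells against MITF/TFE3 DKO cells. Against MITF/TFEB DKO cells they were 0 to 0 and 3 to 6.

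The replicate block left each count within 1 of the value without it (15 in place of 14 lower in TKO cells, 8 in place of 7 higher in MITF/TFE3 DKO cells and 13 in place of 12 lower in TKO cells against MITF KO cells, 6 in place of 5 lower in TKO cells against MITF/TFEB DKO cells). Libraries with the same number had a mean correlation of 0.022 in their deviations from the line means (-0.66 to 0.77), beside -0.013 for other numbers, which does not pair the samples by the rule used. In TFE3 KO cells, TFEB KO and TFEB/TFE3 DKO replicate 1 scored 0.35, 0.24 and 0.15 on the within-line axis and replicate 2 -0.26, -0.37 and -0.37, and shared handling of same-numbered libraries in these 3 lines was not tested. For the 25 named genes, each in the line whose mean differed most from the parental cells, of 449 values under an alternative 418 kept their direction and side of the threshold (or moved by less than the replicate spread), 8 lost the call, 2 gained it, 21 moved and 0 turned direction. Calls in their other comparisons are not in that count. Genes chosen mostly for a wide range, each in its line of largest difference, tend to keep a call by that choice. The count thus does not speak for the members in general, for which 81 of 192 calls were lost without 1 library. Epg5, with 29 reads in its lowest library, is the member that depth limits most.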

Other observations

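Bnip3, a mitophagy receptor gene known to respond to low oxygen, varied widely between libraries of a line. Bnip3 stood at 44.6, 54.98 and 52.3 CPM in parental libraries, 42.7, 51.5 and 45.5 in TFE3 KO cells, 171, 66.8 and 86.4 in TFEB KO cells and 212, 147 and 144 in TFEB/TFE3 DKO cells. The Bnip3 values without MITF were 59.8, 115 and 84.7 CPM in MITF KO cells, 40.7, 27.5 and 30.2 in MITF/TFE3 DKO cells, 65.99, 70.2 and 70.8 in MITF/TFEB DKO cells and 54.3, 48.5 and 49.3 in TKO cells. All 3 libraries of MITF KO cells, TFEB KO and TFEB/TFE3 DKO were above all parental libraries. The differences were 0.72 ± 0.24 in MITF KO cells (adjusted p = 0.0225 by limma), 0.97 ± 0.24 in TFEB KO cells (0.0185) and 1.69 ± 0.24 in TFEB/TFE3 DKO cells (6.3e-05). In MITF/TFEB DKO cells the libraries were also above the parental ones, without a call (0.44 ± 0.24, 0.126), and the MITF/TFE3 DKO was lower (-0.63 ± 0.24, 0.0417).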
